A study of Mus musculus with 8 samples.

Results

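Acetylcholine neurons and the transcription factors that specify motor neurons were followed through 9 genes, *Chat*, *Slc5a7*, *Slc18a3*, *Ache*, *Isl1*, *Isl2*, *Mnx1*, *Lhx3* and *Lhx4*, of the 49585 genes listed for the alignment to the C57BL/6J (B) genome. The genes were taken by name, each symbol matched 1 Ensembl mouse identifier, and the rule itself uses no measured value. Reads were counted per gene in poly(A) RNA from the whole brains of 8 newborn female F1 mice with a C57BL/6J mother and a CAST/EiJ (C) father. The 4 control pups came from dams given 0 ppm cadmium in their drinking water, and the 4 exposed pups from dams given 50 ppm, as CdCl2, from before mating until the pups were born. Each pup came from a different litter, all were collected within a day of birth, and RNA was extracted from a small portion of the pulverised brain. Between 22916434 and 30708087 reads per brain fell on genes, and levels are given as CPM, the read count of a gene scaled to an equal library total, on which 3 reads in a brain correspond to 0.098 to 0.132 CPM.

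Acetylcholine is made by choline acetyltransferase (*Chat*) from choline that the high-affinity transporter of *Slc5a7* carries into the nerve ending, is loaded into vesicles by the product of *Slc18a3*, and is cleaved in the synaptic cleft by acetylcholinesterase (*Ache*). In the central nervous system the transmitter is used by basal forebrain projection neurons, striatal interneurons, brainstem nuclei and the motor neurons of brainstem and spinal cord. LIM homeodomain factors (*Isl1*, *Isl2*, *Lhx3*, *Lhx4*) and the homeodomain factor of *Mnx1* specify spinal motor neurons, but *Isl1* is also made in striatal, hypothalamic and sensory neurons and *Lhx3* and *Lhx4* also act in the pituitary gland and in V2 interneurons of the cord.

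Before the individual genes, a difference between the libraries has to be given, because several values move with it. The summed level of 18 hindbrain and spinal cord markers, mostly *Hox* genes that pattern the posterior neural tube, was 0.819 and 4.46 CPM in 0 ppm replicates 1 and 2, 51.4 and 62.6 CPM in 0 ppm replicates 3 and 4, and 56.7 to 207 CPM in the 4 exposed brains. In these bulk samples fewer cells of a type and less RNA per cell cannot be told apart. The glycine transporter of inhibitory hindbrain and cord neurons, *Slc6a5*, was counted at 7, 64, 827 and 640 reads at 0 ppm and at 1598, 985, 589 and 742 reads at 50 ppm. The members' results are therefore given for all 8 brains and again without 0 ppm replicates 1 and 2, a choice made after seeing the data, and those of other genes again where the value moved by more than 1.5 times or changed sign. How much posterior tissue each brain sample held was not tested.

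2 of the 9 genes form a single locus. On GRCm38, *Chat* (ENSMUSG00000021919) spans chr14:32408203-32465989 on the minus strand, and *Slc18a3* (ENSMUSG00000100241), chr14:32462438-32464850, lies on the same strand wholly inside it without sharing an exon, that is, within an intron of *Chat*. *Slc5a7* (ENSMUSG00000023945) lies at chr17:54273590-54299034 on the minus strand and *Ache* (ENSMUSG00000023328) at chr5:137287519-137294466 on the plus strand. Of the transcription factors, *Isl1* (ENSMUSG00000042258) lies at chr13:116298281-116309689 (minus), *Isl2* at chr9:55538672-55546180 (plus), *Mnx1* at chr5:29473034-29478470 (minus), *Lhx3* at chr2:26200212-26208289 (minus) and *Lhx4* at chr1:155698031-155751684 (minus). Exons of a gene on the opposite strand cover 2.12% of the exon length of *Ache* and 6.17% of that of *Lhx3*, and the strand setting of the read counting is not given in the sources used here. The other members share no exon sequence with another annotated gene.

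The start regions of 4 members are shown, those of *Chat* and *Slc18a3* because they are neighbours in 1 locus, and those of *Slc5a7* and *Isl1* because these genes parted between the doses. Each sequence is from RefSeq (GRCm38.p6), runs 5′ to 3′ on the gene's own strand, and holds 250 bases before and 50 bases after the annotated start. Capitals mark every match, on either strand, to 5 short motifs, the homeodomain core TAATTA, the TATA box TATAAA, the CCAAT box, the GC box GGGCGG and the E-box CAGCTG. The windows are chr14:32465860-32466159 for *Chat*, chr14:32464801-32465100 for *Slc18a3*, chr17:54298985-54299284 for *Slc5a7* and chr13:116309639-116309938 for *Isl1*, all on the minus strand.
Chat: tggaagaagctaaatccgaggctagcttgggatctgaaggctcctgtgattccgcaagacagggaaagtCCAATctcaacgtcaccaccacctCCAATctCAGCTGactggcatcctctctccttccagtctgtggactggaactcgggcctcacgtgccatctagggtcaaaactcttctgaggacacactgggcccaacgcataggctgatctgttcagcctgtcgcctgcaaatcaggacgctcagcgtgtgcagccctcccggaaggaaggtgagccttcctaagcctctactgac
Slc18a3: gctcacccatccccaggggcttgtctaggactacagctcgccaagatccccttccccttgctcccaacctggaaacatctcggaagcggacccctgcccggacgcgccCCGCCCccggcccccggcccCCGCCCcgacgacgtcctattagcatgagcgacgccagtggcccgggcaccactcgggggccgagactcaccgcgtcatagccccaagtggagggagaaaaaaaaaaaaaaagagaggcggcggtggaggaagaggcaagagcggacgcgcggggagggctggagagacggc
Slc5a7: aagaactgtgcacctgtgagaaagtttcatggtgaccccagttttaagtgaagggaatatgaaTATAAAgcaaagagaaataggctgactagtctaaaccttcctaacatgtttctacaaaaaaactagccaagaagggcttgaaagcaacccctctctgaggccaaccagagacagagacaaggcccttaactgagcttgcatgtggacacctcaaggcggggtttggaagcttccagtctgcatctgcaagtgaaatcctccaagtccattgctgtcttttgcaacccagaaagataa
Isl1: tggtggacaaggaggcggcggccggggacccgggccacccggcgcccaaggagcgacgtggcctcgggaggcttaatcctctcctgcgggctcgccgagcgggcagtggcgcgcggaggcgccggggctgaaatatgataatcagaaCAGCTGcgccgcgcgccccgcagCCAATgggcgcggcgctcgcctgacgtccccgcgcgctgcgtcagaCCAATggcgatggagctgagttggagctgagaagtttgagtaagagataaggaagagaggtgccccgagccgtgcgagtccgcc

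The 4 windows differed in composition. The *Slc5a7* window held 1 CG dinucleotide, the *Chat* window 10, the *Slc18a3* window 27 and the *Isl1* window 37, against a median of 7 over the 32851 promoters of the RefSeq table. The windows of *Chat* and *Isl1* each held 2 CCAAT matches, a motif present in 37.4% of all promoters, and 1 CAGCTG match, present in 16.3%. The *Slc5a7* window held 1 TATAAA match, 187 bases before the start, and 13.6% of all promoters hold that motif. GGGCGG was read at 2 places on the reverse strand of the *Slc18a3* window and occurs in 35.7% of all promoters. No window of any of the 9 genes held TAATTA, which 5.29% of all promoters hold.

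Per kilobase of exon, and averaged over the 8 brains, *Ache* had the highest level at 13.2 CPM per kb, followed by *Isl1* at 4.77 and *Slc5a7* at 1.72 CPM per kb. The ranges of these 3 genes over the 8 brains did not overlap. *Lhx4* followed at 0.239 and *Chat* at 0.178 CPM per kb, with overlapping ranges of 0.193 to 0.373 and 0.0906 to 0.3. *Lhx3* stood at 0.093, *Isl2* at 0.0379 and *Mnx1* at 0.0122 CPM per kb, and *Slc18a3* was listed at 0 in all 8 brains. *Tubb3*, a tubulin of every neuron, was also listed at 0 in all 8 brains, so nothing is read from the value of *Slc18a3*.

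The levels go against reading these genes as markers of somatic motor neurons. Of the factors that define somatic motor neurons, *Mnx1* had 0 reads in 6 of 8 brains, and *Isl2* had no more than 4 reads in any. The members with many reads, *Ache* and *Isl1*, are made by many neurons outside the motor columns, and *Chat*, the gene that defines a cholinergic neuron, gave 11 to 32 reads per brain. The set is therefore described as acetylcholine genes and LIM homeodomain genes of the whole newborn brain.

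**Figure D1:**
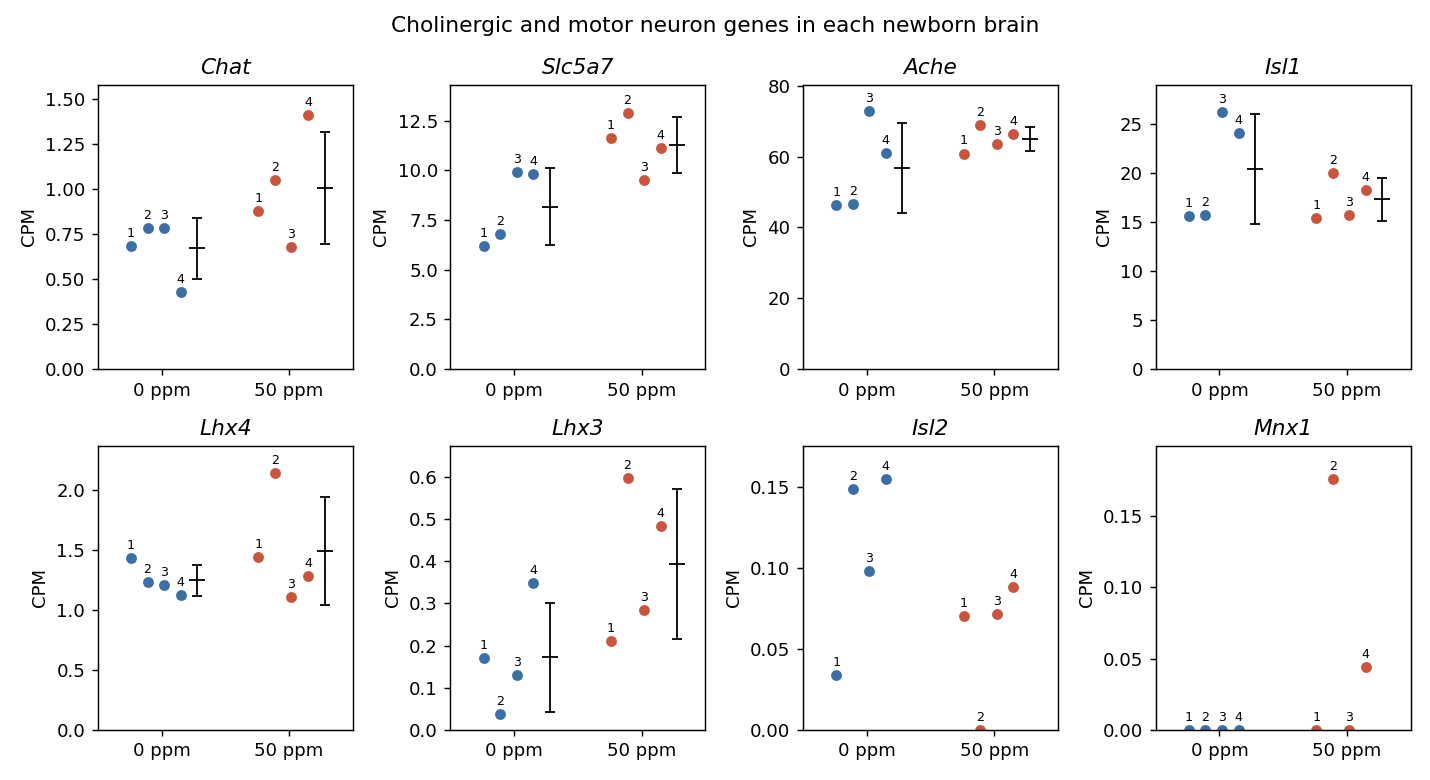
CPM (vertical axis, from 0) of 8 members in each newborn brain by maternal dose. Points are brains labelled with the replicate number, bars are mean ± SD (n = 4) and are left out for *Isl2* and *Mnx1*, which have at most 5 reads in a brain. *Slc5a7* sits between 6.21 and 9.89 CPM at 0 ppm and between 9.49 and 12.9 CPM at 50 ppm, while *Isl1* is highest in 0 ppm replicates 3 and 4.

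Whether maternal cadmium altered these genes was asked with edgeR's quasi-likelihood test over the 23113 genes that had reads in at least 3 of the 8 brains, with Benjamini-Hochberg adjustment over all of them. Of the 9 members, 7 passed this filter and 0 reached an adjusted p under 0.05, against 4 genes or 0.0173% of all genes tested, namely *Hoxb8*, *Hoxb7*, *Hoxb6* and the myelin gene *Bcas1*. A fold change could be given for 6 members, since both doses of *Isl2* averaged 3 reads or fewer. Of the 6, 5 had a higher and 1 a lower mean at 50 ppm, where 9122 of all 19139 genes with a fold change were higher. At an unadjusted p under 0.05, 2 of these members were higher, where 2.31% of all genes tested were higher and 1.44% lower.

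*Slc5a7*, the choline transporter, had the smallest unadjusted p among the members. It was counted at 6.21, 6.77, 9.89 and 9.8 CPM in the 0 ppm brains and at 11.6, 12.9, 9.49 and 11.1 CPM in the 50 ppm brains, with 182 to 367 reads per brain. In 3 of 4 exposed brains the level was above the highest control, and 50 ppm replicate 3 fell among the controls. The means were 8.17 ± 1.95 CPM at 0 ppm and 11.3 ± 1.4 CPM at 50 ppm (SD, n = 4), a log2 fold change of 0.46 (SE 0.16, edgeR unadjusted p = 0.00888, adjusted p = 0.999).

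The lowest *Slc5a7* values belonged to 0 ppm replicates 1 and 2, the brains with nearly no *Hox* reads. Without them the log2 fold change was 0.19 (SE 0.15, edgeR unadjusted p = 0.23), and with the mean log2 CPM of the tested markers as a covariate, called the posterior score below, it was -0.01 (SE 0.19, edgeR unadjusted p = 0.962). Across the 8 brains the log2 CPM of *Slc5a7* followed that score with Pearson r = 0.95 and Spearman rho = 0.88, and with r = 0.63 once these 2 brains were left out. The score holds the 3 called *Hox* genes, all 4 exposed brains (1.45 to 3.09) lie above all controls (-3.29 to 0.91) on it, and in a fit with the score as covariate dose and score therefore cannot be told apart. The correlations describe the same 8 libraries, and the part of posterior tissue in the *Slc5a7* difference was not tested.

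*Slc5a7* is the only member whose C genome identifier is paired with a name. In the separate count table of the alignment to the CAST/EiJ genome it had 177, 173, 290 and 243 reads at 0 ppm and 316, 354, 251 and 235 reads at 50 ppm. The log2 fold change there was again 0.46 (SE 0.16, edgeR unadjusted p = 0.0108, adjusted p = 0.999), where 2.44% of 19847 genes were higher at an unadjusted p under 0.05. The same reads were aligned to both genomes, so this is a second processing and not a second measurement.

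*Chat*, the synthetic enzyme, was counted at 0.683, 0.781, 0.784 and 0.426 CPM at 0 ppm and at 0.877, 1.05, 0.678 and 1.41 CPM at 50 ppm. Exposed replicates 1, 2 and 4 were above every control, and replicate 3 was again the exception. With so few reads the counting error is wide: 32 reads, the highest count, has an exact 95% Poisson interval of 21.9 to 45.2 reads, and 11 reads, the lowest, one of 5.49 to 19.7. The log2 fold change was 0.57 (SE 0.30, edgeR unadjusted p = 0.0783, adjusted p = 0.999). It was 0.69 (SE 0.39) without 0 ppm replicates 1 and 2, and 0.37 without 50 ppm replicate 4, the brain with the most *Chat* reads.

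*Ache*, the degrading enzyme, was the most strongly expressed member. It stood at 46.4, 46.6, 72.9 and 61 CPM at 0 ppm and at 60.9, 69, 63.7 and 66.4 CPM at 50 ppm. All 4 exposed brains lay between 0 ppm replicates 2 and 3, so the doses overlapped fully, and the spread was wider among controls (56.7 ± 12.8 CPM) than among exposed brains (65 ± 3.49 CPM, SD, n = 4). The log2 fold change was 0.20 (SE 0.12, edgeR unadjusted p = 0.11, adjusted p = 0.999), and it turned to -0.05 (SE 0.10) without 0 ppm replicates 1 and 2.

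*Isl1*, the LIM factor shared by motor, striatal and sensory neurons, was the only member with a fold change that was lower on average at 50 ppm. It was counted at 15.6, 15.7, 26.3 and 24.1 CPM in the controls and at 15.4, 20, 15.7 and 18.3 CPM in the exposed brains. The controls fell into a low pair, replicates 1 and 2, at the level of the lowest exposed brains, and a high pair, replicates 3 and 4, above every exposed brain. Over all 8 brains the log2 fold change was -0.24 (SE 0.16, edgeR unadjusted p = 0.142, adjusted p = 0.999).

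Without the low pair the difference of *Isl1* was -0.55 (SE 0.13, edgeR unadjusted p = 0.00026, adjusted p = 0.223), a comparison in which 2.04% of 23841 genes were lower at an unadjusted p under 0.05. With the posterior score in the model, which carries the limit given for *Slc5a7*, the difference was -0.69 (SE 0.18, edgeR unadjusted p = 0.000806, adjusted p = 0.633). Neither value passed the adjusted threshold. The 8 brains showed no single trend of *Isl1* with the score (Pearson r = 0.21, Spearman rho = -0.05), and the coefficient was -0.81 among the 6 brains other than 0 ppm replicates 1 and 2, where dose and score again move together.

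**Figure D2:**
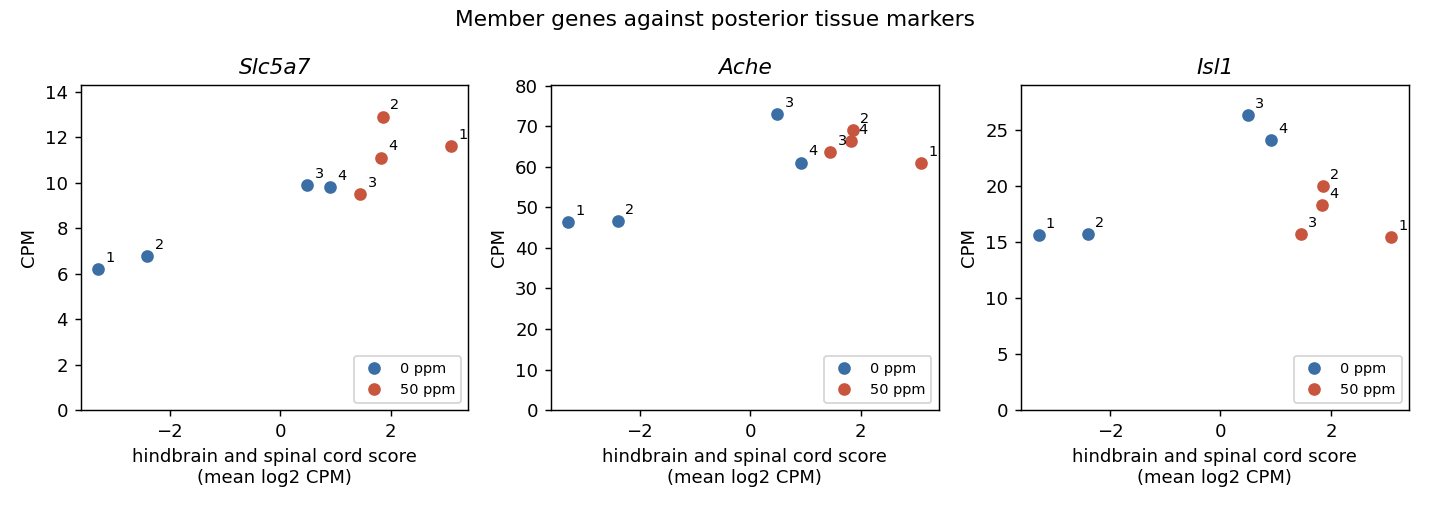
CPM of *Slc5a7*, *Ache* and *Isl1* (vertical axes, from 0) against the posterior score, the mean log2 CPM of 14 tested marker genes (horizontal axis). Each point is a brain with its replicate number. 0 ppm replicates 1 and 2, at scores of -3.29 and -2.4, hold the lowest *Slc5a7* and *Ache* values and 2 of the low *Isl1* values.

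The remaining transcription factors had few reads. *Lhx3* was counted at 5, 1, 4 and 9 reads at 0 ppm and at 6, 17, 8 and 11 reads at 50 ppm, which is 0.171, 0.0372, 0.131 and 0.348 CPM against 0.21, 0.597, 0.285 and 0.485 CPM. Exposed replicates 2 and 4 were above every control, and the other two were within the control range. The log2 fold change of 1.19 (SE 0.54, edgeR unadjusted p = 0.0426, adjusted p = 0.999) was 0.73 (SE 0.60, edgeR unadjusted p = 0.231) without 0 ppm replicates 1 and 2, and it was 0.87 without 0 ppm replicate 2 alone, the brain with 1 read.

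*Lhx4*, the paralog of *Lhx3*, was counted at 42, 33, 37 and 29 reads at 0 ppm and at 41, 61, 31 and 29 reads at 50 ppm. The doses overlapped, and 50 ppm replicate 2, which also had the most *Lhx3*, *Slc5a7* and *Mnx1* reads of all brains, stood alone at 2.14 CPM where the other brains lay at 1.11 to 1.44 CPM. The log2 fold change was 0.26 (SE 0.25, edgeR unadjusted p = 0.307, adjusted p = 0.999), and it was 0.03 without that brain.

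*Isl2* was counted at 1, 4, 3 and 4 reads at 0 ppm and at 2, 0, 2 and 2 reads at 50 ppm. *Mnx1* had 0 reads in all 4 controls and 0, 5, 0 and 1 reads in the exposed brains. No fold change is given for either gene, since both doses averaged 3 reads or fewer, and a count of 0 in a brain allows up to 3 reads, or 0.098 to 0.132 CPM, as a one-sided 95% limit (the two-sided Poisson interval used for *Chat* ends at 3.69 reads). For *Isl2* and *Mnx1* these counts bound a fall or a small difference only weakly.

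**Figure D3:**
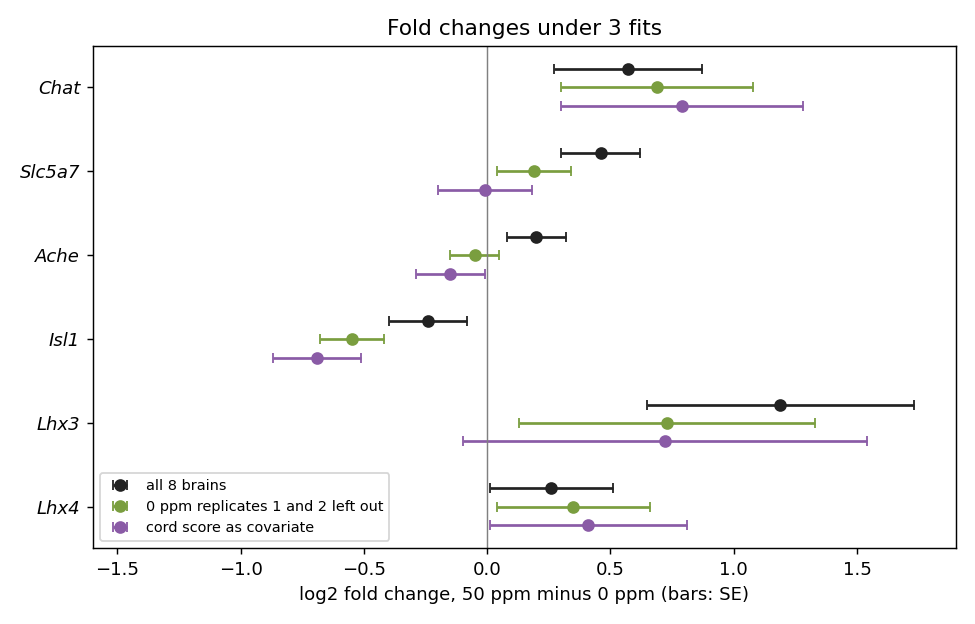
Log2 fold change, 50 ppm minus 0 ppm, of the 6 members for which one is given, with bars of 1 standard error from edgeR. Points show the fit of all 8 brains, the fit without 0 ppm replicates 1 and 2, and the fit that includes the posterior score. *Slc5a7* and *Ache* move toward or past 0 in the last 2 fits (0.46 to -0.01 and 0.20 to -0.15), and *Isl1* moves away from it (-0.24 to -0.69).

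The members did not move as a block, and ratios of reads within a brain, which do not depend on the scaling between libraries, show where they parted. Ratios were formed among the 5 members with at least 10 reads in at least 4 brains, which gives 10 pairs, and the pairs described here were chosen after their values were seen. The number of *Slc5a7* reads per *Isl1* read was 0.397, 0.432, 0.376 and 0.407 at 0 ppm and 0.753, 0.645, 0.605 and 0.606 at 50 ppm. The doses did not overlap, and the 2 controls with few *Hox* reads had the same ratio as the other two. The mean log2 ratio was -1.31 ± 0.08 at 0 ppm and -0.62 ± 0.15 at 50 ppm (SD, n = 4), a difference of 0.69.

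For background, the ratio of *Isl1* to each of 16531 other genes was lower in every exposed than in every control brain for 1.81% of genes, and the ratio of a gene to *Slc5a7* for 15.8% of genes. A ratio to *Slc5a7* that separates the doses is thus common, and a ratio of *Isl1* that does so is rarer. The *Ache* to *Isl1* ratio also separated the doses, at 2.97, 2.97, 2.77 and 2.53 reads per read at 0 ppm and 3.96, 3.45, 4.05 and 3.64 at 50 ppm. The other 8 pairs overlapped, among them *Slc5a7* to *Ache*, at 0.134 to 0.161 in controls and 0.149 to 0.19 in exposed brains, and *Chat* to *Slc5a7*, at 0.0435 to 0.115 and 0.0714 to 0.127. Both separating pairs thus involve *Isl1*, and the ratios of the acetylcholine genes to each other overlapped between the doses.

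**Figure D4:**
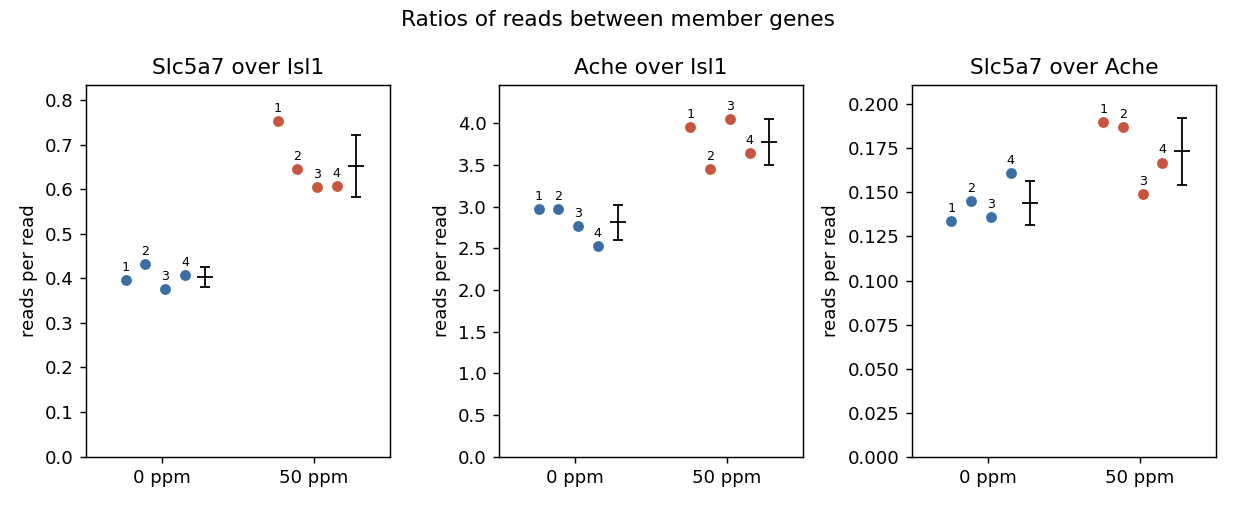
Reads of one member per read of another in each brain (vertical axes, from 0) for *Slc5a7* over *Isl1*, *Ache* over *Isl1* and *Slc5a7* over *Ache*, by maternal dose. Points are brains with their replicate number and bars are mean ± SD (n = 4). In the first pair controls lie at 0.376 to 0.432 and exposed brains at 0.605 to 0.753, whereas the third pair overlaps.

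The receptors on which acetylcholine acts were described from lists written with earlier results of these data known. None of the 5 muscarinic receptor genes reached an unadjusted p under 0.05, their median log2 fold change was -0.03, and that of all genes with a fold change was -0.01. Without 0 ppm replicates 1 and 2 the muscarinic median was 0.06 and that of the nicotinic subunits moved from -0.04 to -0.13. The most abundant, *Chrm1*, was at 30.7 ± 9.24 CPM at 0 ppm and 28.9 ± 2.42 CPM at 50 ppm (SD, n = 4). Its log2 fold change was -0.09 (SE 0.15), or 0.21 without these 2 brains. *Chrm2*, an inhibitory receptor found on cholinergic terminals, had the smallest p of this list, with a log2 fold change of 0.20 (SE 0.11, edgeR unadjusted p = 0.0868), or 0.06 without these 2 brains. All 11 neuronal nicotinic subunit genes were tested, 0 at an unadjusted p under 0.05. *Chrna4* and *Chrnb2*, the subunits of the main brain receptor, had log2 fold changes of 0.08 (SE 0.10) and -0.05 (SE 0.07), which were -0.13 and -0.10 without them.

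Genes of the muscle endplate were at low levels, with a summed level of 2.12 to 2.79 CPM over 8 genes in controls and 2.35 to 2.96 CPM in exposed brains. *Musk* had the highest level of the list, at 1.26 ± 0.247 CPM at 0 ppm and 1.32 ± 0.259 CPM at 50 ppm (SD, n = 4). *Chat* had lower means, 0.668 and 1 CPM. The log2 fold change of *Musk* was 0.07 (SE 0.24), or -0.14 without 0 ppm replicates 1 and 2. The fetal and shared subunits *Chrng* and *Chrnd* had at most 2 reads in a brain. *Colq*, the collagen tail that anchors acetylcholinesterase, had the smallest unadjusted p of this list. It had 4, 2, 2 and 2 reads at 0 ppm and 16, 4, 7 and 7 reads at 50 ppm, and a log2 fold change of 1.78 (SE 0.58, edgeR unadjusted p = 0.00637, adjusted p = 0.999). Skeletal muscle genes had a summed level of 13 to 14.5 CPM in controls and 13.7 to 15 CPM in exposed brains, and the muscle determination gene *Myod1* had at most 2 reads.

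Of 10 other genes of cholinergic synapses and choline handling, 7 had a positive and 3 a negative log2 fold change. The median was 0.05, or 0.02 without 0 ppm replicates 1 and 2. At an unadjusted p under 0.05, 1 was higher, where 2.31% of all genes tested were higher and 1.44% lower. This was *Lynx1*, a membrane-anchored modulator of nicotinic receptors, at 33.8 ± 8.83 CPM at 0 ppm and 46.9 ± 4.74 CPM at 50 ppm (SD, n = 4), with a log2 fold change of 0.47 (SE 0.14, edgeR unadjusted p = 0.00308, adjusted p = 0.831). Its lowest values were again in 0 ppm replicates 1 and 2, and without them the log2 fold change was 0.18. The second esterase, *Bche*, had a log2 fold change of 0.26 (SE 0.13, edgeR unadjusted p = 0.0565), and the choline transporter *Slc44a1*, which is present in most cells, one of 0.06 (SE 0.09) that was 0.13 without these 2 brains.

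Other genes of motor neurons had mostly positive fold changes. Of 23 listed, all were tested and 22 had a fold change, 16 positive and 6 negative, where 9122 of all 19139 genes with a fold change were positive. At an unadjusted p under 0.05, 10 were reached, all 10 higher, against 2.31% of all genes tested. The 2 with the highest levels, *Foxp1* and *Lmo4*, had log2 fold changes of -0.03 (SE 0.10) and -0.04 (SE 0.09). These were 0.03 and 0.05 without 0 ppm replicates 1 and 2. None reached an adjusted p under 0.05. *Tbx20*, a T-box factor of hindbrain motor neurons, was counted at 10, 7, 24 and 22 reads at 0 ppm and at 91, 55, 22 and 38 reads at 50 ppm, a log2 fold change of 1.76 (SE 0.40, edgeR unadjusted p = 0.000372, adjusted p = 0.319). *Prph*, the intermediate filament peripherin of motor and sensory neurons, had 146, 57, 308 and 188 reads against 471, 417, 297 and 298, a log2 fold change of 1.16 (SE 0.28, edgeR unadjusted p = 0.000646, adjusted p = 0.421) that was 0.66 without 0 ppm replicates 1 and 2. The third by p was *Esrrg*, an orphan nuclear receptor enriched in gamma motor neurons, at 0.50 (SE 0.13, edgeR unadjusted p = 0.00109, adjusted p = 0.57).

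The lowest *Tbx20* and *Prph* counts were, as for *Slc6a5*, in 0 ppm replicates 1 and 2. Without these 2 brains the median log2 fold change of the motor neuron list moved from 0.37 to 0.13, that of the hindbrain and spinal cord list from 1.86 to 0.99, and that of the acetylcholine members from 0.46 to 0.19. Of the 18 hindbrain and spinal cord genes listed, 4 had 0 reads in every brain and 14 were tested. All 14 had a positive log2 fold change in the full comparison with an unadjusted p under 0.05, and 3 were called. Among all genes, 9122 of the 19139 with a fold change were positive. At that unadjusted p, 2.31% of all genes tested were higher, and 4 of 23113 were called, these 3 included. The list was written with earlier results of these data known.

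Markers of forebrain cholinergic neurons were split in direction. Of 7 genes 6 were tested, 3 with a positive and 3 with a negative log2 fold change, and the median was -0.12, or -0.35 without 0 ppm replicates 1 and 2. *Lhx8*, the LIM factor that specifies these neurons, was counted at 174, 232, 411 and 228 reads at 0 ppm and at 133, 308, 125 and 163 reads at 50 ppm, with a log2 fold change of -0.44 (SE 0.25, edgeR unadjusted p = 0.0984) that was -0.72 without these 2 brains. *Ngfr*, the low-affinity neurotrophin receptor that basal forebrain cholinergic neurons carry, had one of 0.54 (SE 0.16, edgeR unadjusted p = 0.00414, adjusted p = 0.92), or 0.34 without them, and *Ngfr* is also made by peripheral glia. *Zic4* had the highest level of this list, at 54.7 ± 12.3 CPM at 0 ppm and 55.4 ± 5.72 CPM at 50 ppm (SD, n = 4). Its log2 fold change was 0.02 (SE 0.12), or -0.22 without 0 ppm replicates 1 and 2.

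Other tissues that make the LIM factors were checked by their own markers, and their part in the members' values was not tested. Striatal projection neuron genes summed to 270 to 358 CPM in controls and 294 to 339 CPM in exposed brains, with 2 positive and 6 negative log2 fold changes. *Ebf1*, a factor of direct pathway neurons that other neurons also make, had the smallest p, with a log2 fold change of 0.42 (SE 0.15, edgeR unadjusted p = 0.0116, adjusted p = 0.999). *Drd1*, the dopamine receptor of the direct pathway, differed in the other direction, at -0.35 (SE 0.13, edgeR unadjusted p = 0.0137, adjusted p = 0.999), and at -0.22 without 0 ppm replicates 1 and 2. V2 and other cord interneuron factors summed to 63.9 to 103 CPM in controls and 81.4 to 106 CPM in exposed brains. In that list *Pax2* and *Pax8*, factors of inhibitory neurons in the dorsal cord and hindbrain, were higher at an unadjusted p under 0.05 (edgeR, both with an adjusted p of 0.999). Their log2 fold changes of 1.25 and 1.40 were 0.75 and 0.57 without 0 ppm replicates 1 and 2.

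Pituitary markers summed to 6.83 to 20.5 CPM in controls and 6.75 to 11.8 CPM in exposed brains, and the hormone subunit gene *Fshb* was at 0 in all 8 brains, with no more than 1 read for *Gh* or *Prl*. *Cga*, the glycoprotein hormone subunit, had 7, 0, 0 and 0 reads at 0 ppm and 11, 13, 4 and 5 reads at 50 ppm. The 8 genes of sensory ganglia and peripheral nerve, where *Isl1* and *Isl2* are also made, summed to 24 to 35.3 CPM in controls and 34.6 to 53.3 CPM in exposed brains. All 8 had a positive log2 fold change, as had 9122 of the 19139 genes with a fold change. At an unadjusted p under 0.05, 2 were higher, against 2.31% of all genes tested. The smallest p was that of *Prrxl1*, at 2.71 (SE 0.59, edgeR unadjusted p = 0.000226, adjusted p = 0.298). Its reads were 4, 11, 98 and 18 at 0 ppm and 467, 131, 86 and 131 at 50 ppm. The highest levels were those of *Pou4f1* (13.4 and 15.6 CPM at 0 and 50 ppm) and *Sox10* (11.9 and 12.9 CPM). The log2 fold change of *Pou4f1* was 0.21 (SE 0.17) and turned to -0.10 without 0 ppm replicates 1 and 2, so not all of the list stayed positive there. How much of these values came from ganglia or nerve was not tested.

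All 7 genes of retina and pineal gland, another site of *Isl1*, had a negative log2 fold change with a median of -0.41 (-0.60 without 0 ppm replicates 1 and 2), as had 10017 of the 19139 genes with a fold change. They summed to 20.3 to 30.1 CPM in controls and 14 to 21.6 CPM in exposed brains. *Otx2* alone was at 18.1 ± 4.07 CPM at 0 ppm and 15.7 ± 3.84 CPM at 50 ppm (SD, n = 4), so the sum mostly follows this gene. Its log2 fold change was -0.21 (SE 0.17), or -0.08 without 0 ppm replicates 1 and 2. *Crx*, the photoreceptor and pineal factor, led this list at -1.71 (SE 0.50, edgeR unadjusted p = 0.00327, adjusted p = 0.831), with 75 reads in 0 ppm replicate 1 and 6 to 25 in the other brains, and it was at -0.56 without 0 ppm replicates 1 and 2. Genes of brain identity summed to 1139 to 1197 CPM in controls and 1133 to 1220 CPM in exposed brains.

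**Figure D5:**
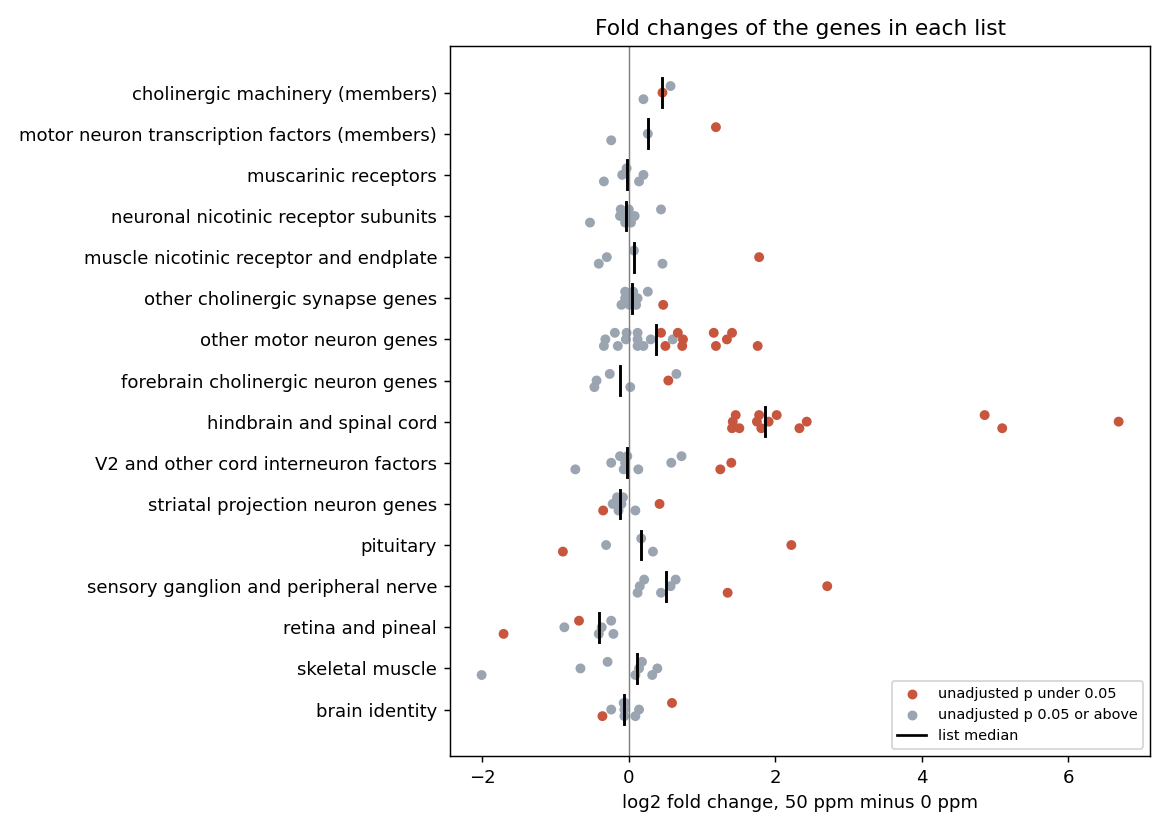
Log2 fold changes, 50 ppm minus 0 ppm (horizontal axis), of the genes in each list, with 1 point per gene and a black bar at the list median. Red points have an unadjusted edgeR p under 0.05, and genes that average 3 reads or fewer at both doses are left out. The hindbrain and spinal cord list lies wholly to the right (median 1.86), the motor neuron list has most points to the right (median 0.37), and the receptor lists are centred near 0 (medians -0.03 and -0.04).

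The genes whose levels across the 8 brains were most like those of *Chat* and *Isl1* were sought among 16527 genes with at least 10 reads in at least 4 brains, and the likeness is a description only, since with 8 points 13 genes for *Chat* and 47 for *Isl1* exceeded a Pearson r of 0.9. For *Chat* they were *Ptprq* (r = 0.967), *Fth1* (r = 0.966), *Cst3* (r = 0.958), *Sdc4* (r = 0.948) and *Dock2* (r = 0.945). For *Isl1* they were *Wdr6* (r = 0.970), *P2rx6* (r = 0.964), *Tox2* (r = 0.961), *Nnat* (r = 0.959) and *Ndn* (r = 0.957). Among the members themselves the order depended on the measure. *Slc5a7* and *Ache* had the highest r, 0.87, with rho = 0.64 over 8 brains, and *Ache* and *Isl1* the highest rho, 0.79, with r = 0.61. *Chat* and *Slc5a7* had r = 0.40 and rho = 0.71, and *Chat* and *Isl1* had r = -0.22 and rho = -0.02. *Nnat* and *Ndn*, which are imprinted, and *Wdr6* are abundant (1304, 577 and 625 CPM on average), and none of the 10 genes belongs to the lists above.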

How the data were processed

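RNA-seq libraries of 8 newborn female brains, 4 per dose, were grouped by the sample labels. The authors deposited unnormalized counts of reads on each gene for the alignments to the B genome (GRCm38) and the C genome (CAST/EiJ), after trimming the initial bases, aligning with STAR and counting with htseq-count. The versions of these tools and the strand setting of the counting are not given in the sources used here. All columns were used, and a few genes of the lists are not reported by name.

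Genes with reads in at least 3 of 8 libraries were tested with edgeR 4.0.16 in R 4.3.3 (TMM, glmQLFit and glmQLFTest, treatment as the only term, Benjamini-Hochberg adjustment, threshold 0.05). The SE of a log2 fold change is its size divided by the square root of F. CPM use TMM-scaled library sizes, and log2 CPM a prior count of 2. Total counts were 22916434 to 30708087 (B) and 20229869 to 27198662 (C), and Poisson intervals and limits for a count of 0 (3 reads) cover counting error only. Symbols name 49326 of 49585 B identifiers and 120 of 37192 C identifiers, and exon lengths come from GENCODE M21. Ratios of a member to every other gene added 0.5 reads to each count. The posterior score is the mean log2 CPM of 14 tested hindbrain and spinal cord genes.

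The members and all gene lists were chosen with earlier results of these data known. Named are all members, the 3 genes with the smallest unadjusted p and the 2 with the highest CPM of a list, fewer where brevity asked, and the 5 genes most correlated with *Chat* and with *Isl1*. *Slc6a5*, *Chrng*, *Chrnd*, *Myod1*, *Gh*, *Prl*, *Fshb* and *Tubb3* were named after their values were seen. Alternatives were DESeq2 1.42.0, its size factors in edgeR, no filter, a minimum of 10 reads in 4 or more libraries, the score as a covariate, the C genome, each library left out, and 0 ppm replicates 1 and 2 left out together. The code was tested on simulated data.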

Additional observations from a re-analysis of the deposited data

How the results depend on the processing

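No member reached an adjusted p under 0.05 under any alternative; the smallest was 0.223, for *Isl1* without 0 ppm replicates 1 and 2. All 6 members kept the direction of their log2 fold change under DESeq2, DESeq2's size factors, the other filters that kept them and every single library left out. *Slc5a7* turned from 0.46 to -0.01 with the posterior score as a covariate, and *Ache* from 0.20 to -0.15 with the covariate and to -0.05 without 0 ppm replicates 1 and 2. With single libraries left out, *Slc5a7* ranged from 0.35 (without 0 ppm replicate 1) to 0.57 (without 0 ppm replicate 3), *Isl1* from -0.35 to -0.09 and *Lhx3* from 0.87 to 1.74, and 5 of 6 members stayed positive each time. It was 4 of 6 without 0 ppm replicates 1 and 2. The count of genes called among all genes was 4, 18 with DESeq2, 52 with no filter, 2 with a minimum of 10 reads in 4 or more libraries, 7 without 0 ppm replicates 1 and 2, and 2 to 20 with 1 library left out, highest without 0 ppm replicate 3. The causes were not tested. No paired analysis was possible because the replicate numbers only follow the order of the records and each pup came from a different litter. Reads limit *Chat*, *Lhx3*, *Isl2* and *Mnx1*.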

Other observations

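0 ppm replicate 3 held the highest counts of 2 ventral forebrain genes, named after their values were seen: *Nkx2-1* had 789 reads there and 166 to 540 in the other brains, and *Lhx8* 411 against 125 to 308. That brain also had the most *Isl1* reads, 806, and the most *Ache* reads, 2233. *Gbx1*, a homeobox gene of the basal forebrain and the cord, was highest in 50 ppm replicate 1, at 465 reads against 65 to 250 in the others, the brain with the highest posterior score (3.09). Among 15 groups of 4 brains with a range above 0, no brain stood apart from the other 3 of its dose in the level of a member by Dixon's criterion at the 95% level.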
